A study of Homo sapiens with 3 samples.

Results

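The SOX genes other than SOX4 that are described here are 10 members of the family of SOX4, namely SOX1, SOX2, SOX14, SOX11, SOX12, SOX8, SOX9, SOX7, SOX17 and SOX18. They were represented by the CpGs within 3 kb of 1 start site per gene (positions of the human build GRCh37), so that the CpGs were taken by position and read depth and not by their methylation. The start sites were placed on chr13 at 112721913 for SOX1, on chr3 at 181429712 for SOX2 and 137483579 for SOX14, on chr2 at 5832799 for SOX11, on chr20 at 306215 for SOX12 and 62680979 for SOX18, on chr16 at 1031808 for SOX8, on chr17 at 70117161 for SOX9, and on chr8 at 10588022 for SOX7 and 55370495 for SOX17. Of 1867 CpGs with a read there, 1108 (59.3%) reached 10 reads in every library and were compared. The same minimum kept 2238764 of 3225751 CpGs in the whole series, which is 69.4%.

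DNA methylation was measured in Hep3B, an established human hepatocellular carcinoma cell line, with 1 library of parental cells and 1 library from each of 2 CRISPR/Cas9 SOX4 knockout lines, called line 1 and line 2 after the numbers in their labels. The question was whether DNA methylation differs once SOX4 is lost. All libraries were made from genomic DNA enriched with a CpG probe set (TruSeq Methyl Capture EPIC) and treated with bisulfite, after which an unmethylated cytosine is read as T while a methylated one is still read as C. The methylation level of a CpG is the percentage of its reads that kept the C. The knockout lines were kept in puromycin, and puromycin is not named for the parental cells, so selection in culture and loss of SOX4 cannot be told apart. Parental cells have no replicate, and the gap between the 2 knockout lines is the only spread between samples of a group. The edit at SOX4 itself was not analysed here.

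SOX proteins are transcription factors that bind and bend DNA through a shared high mobility group domain, and they set cell identity in the embryo and in stem cells. The subgroups differ in tissue: SOX1 and SOX2 act in neural and pluripotent cells and SOX14 in interneurons, SOX11 and SOX12 belong to the SOXC subgroup of SOX4, SOX8 and SOX9 act in neural crest, testis and cartilage, and SOX7, SOX17 and SOX18 in endothelium and endoderm. In liver, SOX9 marks bile duct and progenitor cells. Start sites of such developmental genes usually lie in CpG-rich DNA that is unmethylated in normal tissue and gains methylation at some genes in tumours.

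The RefSeq promoter table (build GRCh38.p14) held 3 of the 10 genes, and the 250 bases before each RefSeq start are shown. Of their CpGs, 30 were compared at SOX12, 0 at SOX1 and 0 at SOX2. The start-site levels of SOX1 and SOX2 given below therefore rest on other CpGs. Their CpGs were paired with those of the files by the spacing of neighbouring CpGs. All were on the plus strand. Capitals mark the CpGs that were read in at least 1 library.
SOX12 (chr20:325302-325551): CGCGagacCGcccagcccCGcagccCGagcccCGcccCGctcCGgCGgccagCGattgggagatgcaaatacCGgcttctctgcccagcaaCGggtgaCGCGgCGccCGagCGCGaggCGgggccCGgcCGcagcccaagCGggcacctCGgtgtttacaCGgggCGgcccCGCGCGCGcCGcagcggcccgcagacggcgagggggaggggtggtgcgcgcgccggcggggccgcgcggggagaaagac
SOX1 (chr13:112066899-112067148): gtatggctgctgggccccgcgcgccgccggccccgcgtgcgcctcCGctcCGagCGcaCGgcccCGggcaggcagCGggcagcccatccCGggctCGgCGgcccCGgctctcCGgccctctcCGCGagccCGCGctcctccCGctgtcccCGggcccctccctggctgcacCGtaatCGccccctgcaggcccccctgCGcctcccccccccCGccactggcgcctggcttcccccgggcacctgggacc
SOX2 (chr3:181711675-181711924): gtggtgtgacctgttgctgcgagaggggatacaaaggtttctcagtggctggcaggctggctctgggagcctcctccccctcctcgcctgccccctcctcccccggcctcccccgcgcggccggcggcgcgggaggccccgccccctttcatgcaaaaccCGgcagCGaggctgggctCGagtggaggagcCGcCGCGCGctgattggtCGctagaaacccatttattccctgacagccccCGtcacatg
The SOX12 sequence holds 42 CpGs, a number reached by 1.38% of the 35116 promoters in the table, whose median is 11. Its 30 CpGs that were read all passed the minimum, and 9 of 1494 reads were methylated in parental cells, 2 of 1126 in line 1 and 5 of 2421 in line 2. The SOX12 promoter was thus read as unmethylated in every library. The SOX1 sequence holds 31 CpGs (reached by 10.9% of promoters), and none of the 21 read had more than 5 reads in a library. Pooled, 56 of 91 reads were methylated in parental cells, 12 of 20 in line 1 and 11 of 16 in line 2. The SOX2 sequence holds 20 CpGs (reached by 32.4% of promoters), of which 9 were read and 0 passed the minimum. There, 0 of 162 reads were methylated in parental cells, 0 of 74 in line 1 and 1 of 137 in line 2. Reads of neighbouring CpGs come in part from the same molecules, so these pooled counts carry no interval. The deepest SOX2 CpG in any library had 21 reads, which allow up to 14.3% at a count of 0 (3 divided by the reads). CpGs and libraries with fewer reads allow more. On this thin coverage, methylated reads made up the larger share at the SOX1 promoter and were nearly absent at the SOX2 promoter in all 3 libraries. The RefSeq start of SOX1 lies 450 bp before the start site that defines its region here, while those of SOX2 and SOX12 lie within 19 bp of theirs.

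Over the 1108 CpGs the mean level was 37.6% in parental cells, 34.6% in line 1 and 36.2% in line 2. The mean of both lines, 35.4% ± 1.13 (SD, n = 2), lay 2.21 percentage points below parental, against a gap of 1.60 points between the lines. Over all CpGs compared, the levels were 42.7%, 38.7% and 40.6%, and the knockout mean lay 3.10 points below parental. The SOX regions were therefore lower in both lines by an amount below that of all CpGs. The median difference per CpG was 0 in either line, for the SOX CpGs as for all CpGs. Among CpGs of 20% or more in parental cells it was -3.33 points in line 1 and -1.97 in line 2 at the 573 SOX CpGs, against -3.18 and -2.27 over all such CpGs.

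The SOX regions differed from all CpGs in how levels were spread. In parental cells 28.2% of SOX CpGs had a level of 20 to 80%, against 19.5% of all CpGs, and 23.6% lay above 80%, against 33.6%. The shares from 20 to 80% were 27.2% in line 1 and 30.3% in line 2, against 18.9% and 20.8%. Neighbouring CpGs of 1 region share reads and are not independent, so these shares are given without a test. In windows of 1 kb with at least 26 CpGs, the median of the SOX windows, 21.5% of 20423 windows had a mean level of 20 to 80% in parental cells, against 8 of 17 SOX windows. These SOX windows numbered 10 of 17 in each knockout line, against 20.9% of all such windows in line 1 and 21.5% in line 2.

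Start-site level, the mean over CpGs within 500 bp of a start site, separated low from high genes. SOX2, SOX12, SOX9, SOX7 and SOX18 were below 20% in all 3 libraries, SOX1, SOX14, SOX11 and SOX17 were above 50% in all 3, and SOX8 had 29.2% in parental cells, 52.1% in line 1 and 38.8% in line 2. At some genes the compared CpGs were few or lay away from the start site itself. SOX2 rests on 4 CpGs from 477 to 499 bp, SOX18 on 18 from 322 to 448 bp and SOX8 on 20 from 351 to 488 bp. SOX11 rests on 5 CpGs between -499 and 396 bp, with levels from 0% to 100% in each library. Over the 306 start-site CpGs of the 10 genes the level was 37.1% in parental cells, 35.5% in line 1 and 35.8% in line 2.

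**Figure D1:**
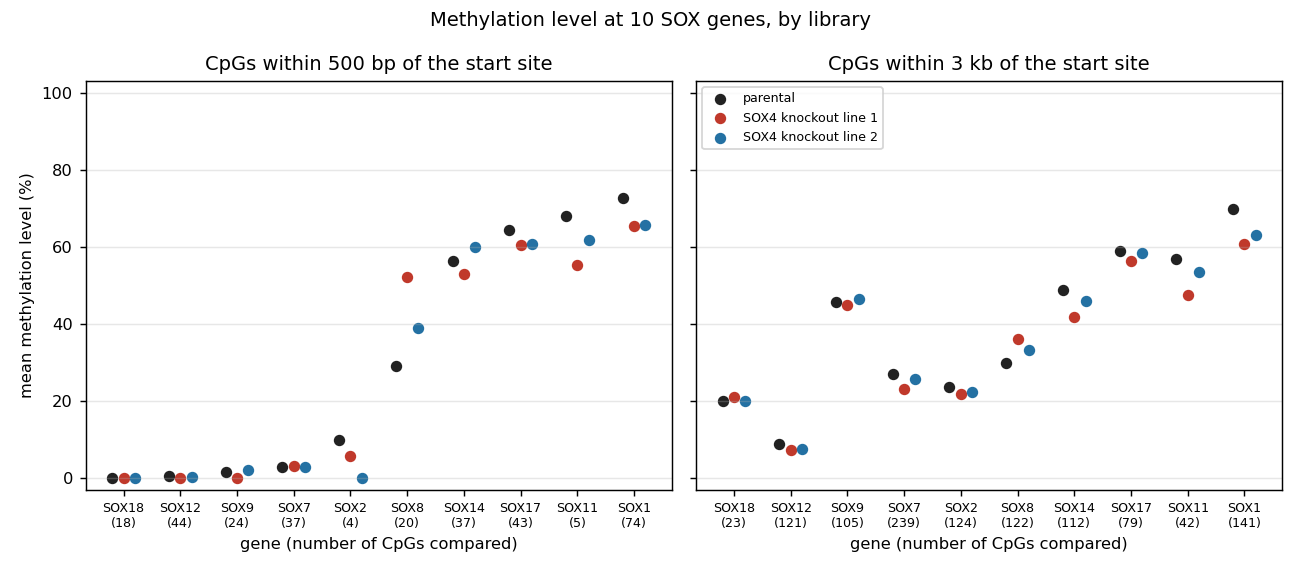
Mean methylation level (%, vertical axis) of each gene in the parental library (black), line 1 (red) and line 2 (blue), for CpGs within 500 bp (left) and 3 kb (right) of the start site, genes in order of the parental start-site level. Each point is 1 library and has no error bar; the low genes sit near 0 and SOX8 shows the widest spread among libraries at its start site, from 29.2% to 52.1%.

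Over the 3 kb regions, 8 of the 10 genes had a lower level in line 1 than in parental cells and 7 had a lower level in line 2; both comparisons share the parental library. The knockout mean lay below parental at 8 genes and above it at SOX8 and SOX18. The difference was larger than the gap between the knockout lines at 6 genes.

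SOX1 and SOX2, factors of neural progenitors and, for SOX2, of pluripotent cells, had opposite states. SOX1 was the most methylated gene, with 69.8% in parental cells, 60.6% in line 1 and 63.2% in line 2 over 141 CpGs. Its knockout mean of 61.9% ± 1.81 (SD, n = 2) lay 7.91 points below parental, about 3 times the gap of 2.56 points between the lines. Among its bins of 500 bp the knockout mean fell furthest below parental from 1500 to 2000 bp downstream, where 8 CpGs averaged 61.2%, 45.2% and 49.2% in the same order. In line 1 alone, the bin from 1000 to 1500 bp upstream lay lower still against parental, with 65.1%, 47.5% and 56.0% over 22 CpGs. Next to the start site, 74 CpGs averaged 72.7% in parental cells, 65.5% in line 1 and 65.7% in line 2. The exception was the bin from 500 to 1000 bp upstream, where 6 CpGs averaged 93.8%, 94.0% and 98.7%. SOX1 thus had a lower level in both lines at its start site and in most bins on either side of it, and stayed above 60% over the region in all 3 libraries.

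SOX2 had 23.5% in parental cells, 21.9% in line 1 and 22.3% in line 2 over 124 CpGs. Its compared CpGs were low downstream of the start site and high upstream, where all of them lay at -898 bp or farther out. The SOX2 promoter sequence, next to the start site, had no CpG compared. On its thin coverage, methylated reads were nearly absent there, with 0 of 162 in parental cells, 0 of 74 in line 1 and 1 of 137 in line 2. From 500 to 1000 bp downstream 54 CpGs averaged 3.06% in parental cells, 3.51% in line 1 and 2.38% in line 2. From 500 to 1000 bp upstream, in 7 CpGs, the levels were 72.3%, 46.4% and 71.0%. Here line 1 stood apart from both other libraries, and line 2 was within 2 points of parental. SOX2 lies inside SOX2-OT, a long noncoding transcript, in the RefSeq gene table, so that these CpGs belong to both genes. The difference of the SOX2 knockout mean, which was -1.41 points, turned to 0.11 when the level was weighted by reads.

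SOX14, a SOXB2 factor that represses transcription in interneurons, had 48.8% in parental cells, 41.7% in line 1 and 45.8% in line 2 over 112 CpGs. Its knockout mean of 43.7% ± 2.95 (SD, n = 2) lay 5.04 points below parental, against a gap of 4.18 points between the lines. From 2500 to 3000 bp upstream 28 CpGs averaged 66.0%, 55.1% and 57.5%, and the 37 start-site CpGs averaged 56.3%, 52.8% and 59.9%. At the start site SOX14 therefore had a lower level than parental in line 1 and a higher one in line 2.

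SOX11 and SOX12, the members closest to SOX4 in sequence, were at opposite ends of the scale. SOX11 had 56.9% in parental cells, 47.5% in line 1 and 53.6% in line 2 over 42 CpGs of 164 read. Its knockout mean of 50.5% ± 4.29 (SD, n = 2) lay 6.33 points below parental, about the gap of 6.07 points between the lines. With a minimum of 20 reads, the difference at SOX11 was -0.18 points. In the bin from 1000 to 1500 bp downstream, where no CpG had more than 14 reads, 10 CpGs averaged 89.9%, 63.8% and 79.7%, and 0 of them were called. From 1500 to 2000 bp, 7 CpGs averaged 12.5%, 20.2% and 21.7%, so the step between these neighbouring bins of SOX11 was smaller in both lines than in parental cells.

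SOX12 had 8.73% in parental cells, 7.18% in line 1 and 7.58% in line 2 over 121 CpGs. The 44 start-site CpGs averaged 0.46%, 0.09% and 0.15%. The 108 CpGs below 20% in every library lay between -848 and 1987 bp, and the first CpG downstream of the start site above 80% in every library lay at 2088 bp. The difference of -1.35 points at SOX12 came from outside 1 kb of the start site, since it was -0.10 points within 1 kb. The bins from 1500 to 2000 and from 2000 to 2500 bp, at the downstream edge, had 12.6% and 77.2% in parental cells, 3.62% and 67.7% in line 1, and 6.39% and 71.6% in line 2. No CpG of these bins was called. The SOX12 region carried fewer reads in line 1, where the region's share of all CpG reads was 0.74 of the parental share, against 1.05 in line 2, and the part of this in its level was not tested.

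SOX8, a SOXE factor of the neural crest and testis, showed the largest rise of the knockout mean among the 10 genes. It had 30.0% in parental cells, 36.2% in line 1 and 33.2% in line 2 over 122 CpGs. The knockout mean of 34.7% ± 2.10 (SD, n = 2) lay 4.75 points above parental, against a gap of 2.97 points between the lines. The rise was largest from 351 to 488 bp downstream of the start site (GRCh37 chr16, 1032159 to 1032296), where 20 CpGs averaged 29.2% in parental cells, 52.1% in line 1 and 38.8% in line 2. Of these 20 CpGs, 15 were higher than parental in line 1 and 16 in line 2. The parental level per CpG ran from 5.26% to 52.6% with a median of 31.6%, that of line 1 from 0% to 94.1% with a median of 72.7%, and that of line 2 from 8.33% to 66.7% with a median of 47.6%. The libraries overlapped, and line 1 held both the lowest and the highest single levels.

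The SOX8 difference was sensitive to depth, strand and distance. Its start-site CpGs had 17 to 21 reads in parental cells, 10 to 18 in line 1 and 19 to 34 in line 2. The SOX8 difference was 0.28 points with a minimum of 20 reads and 0.22 points with reads of the complementary strand alone, 2.75 points weighted by reads and 2.95 points with a minimum of 5 reads. Within 1 kb of the start site it was 15.9 points. In the start-site bin, pooled forward-strand reads were methylated at 37.0% of 189 in parental cells, 69.8% of 63 in line 1 and 34.6% of 356 in line 2. The complementary strand gave 21.6% of 190, 46.4% of 209 and 47.5% of 244. Line 1 was thus above parental on both strands and line 2 on the complementary strand alone. A bin from 1500 to 2000 bp upstream was also higher, with 16.7% in parental cells, 32.7% in line 1 and 25% in line 2 over 16 CpGs.

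SOX9, the SOXE factor of cartilage and of bile duct cells, had 45.7% in parental cells, 45% in line 1 and 46.3% in line 2 over 105 CpGs. The knockout mean differed from parental by -0.03 points, with line 1 below and line 2 above parental, against a gap of 1.35 points between the lines, and its sign was positive on the complementary strand alone (0.15 points) and without line 1 (0.64 points). Its regional level averaged an unmethylated and a methylated stretch. The 24 start-site CpGs had 1.45%, 0.12% and 1.98%, and CpGs from -1432 to 428 bp were below 20% in every library. From 2500 to 3000 bp downstream 20 CpGs averaged 97.2%, 95.7% and 98%.

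The SOXF genes of endothelium and endoderm split in the same manner. SOX7 had 27.0% in parental cells, 23% in line 1 and 25.8% in line 2 over 239 CpGs, the largest number of any gene, and its 37 start-site CpGs had 2.85%, 3.24% and 2.88%. Its knockout mean of 24.4% ± 1.97 (SD, n = 2) lay 2.62 points below parental, less than the gap of 2.79 points between the lines. From 1000 to 1500 bp upstream, 24 SOX7 CpGs averaged 52.3%, 39.1% and 51.4%, again with line 1 apart from the other libraries. SOX17 was methylated, with 59.0%, 56.3% and 58.4% over 79 CpGs and 64.2%, 60.5% and 60.8% over 43 start-site CpGs. Its difference of -1.63 points was smaller than the gap of 2.04 points between the lines and became 1.33 points when weighted by reads. SOX18 had 23 CpGs compared of 94 read. The 18 at its start site had no methylated read in any library. At the deepest of these CpGs, with 14 reads in parental cells, 16 in line 1 and 21 in line 2, a count of 0 allows up to 21.4%, 18.8% and 14.3%. Farther out, 5 CpGs from 1500 to 2000 bp downstream had 91.7%, 96.2% and 92.2%.

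**Figure D2:**
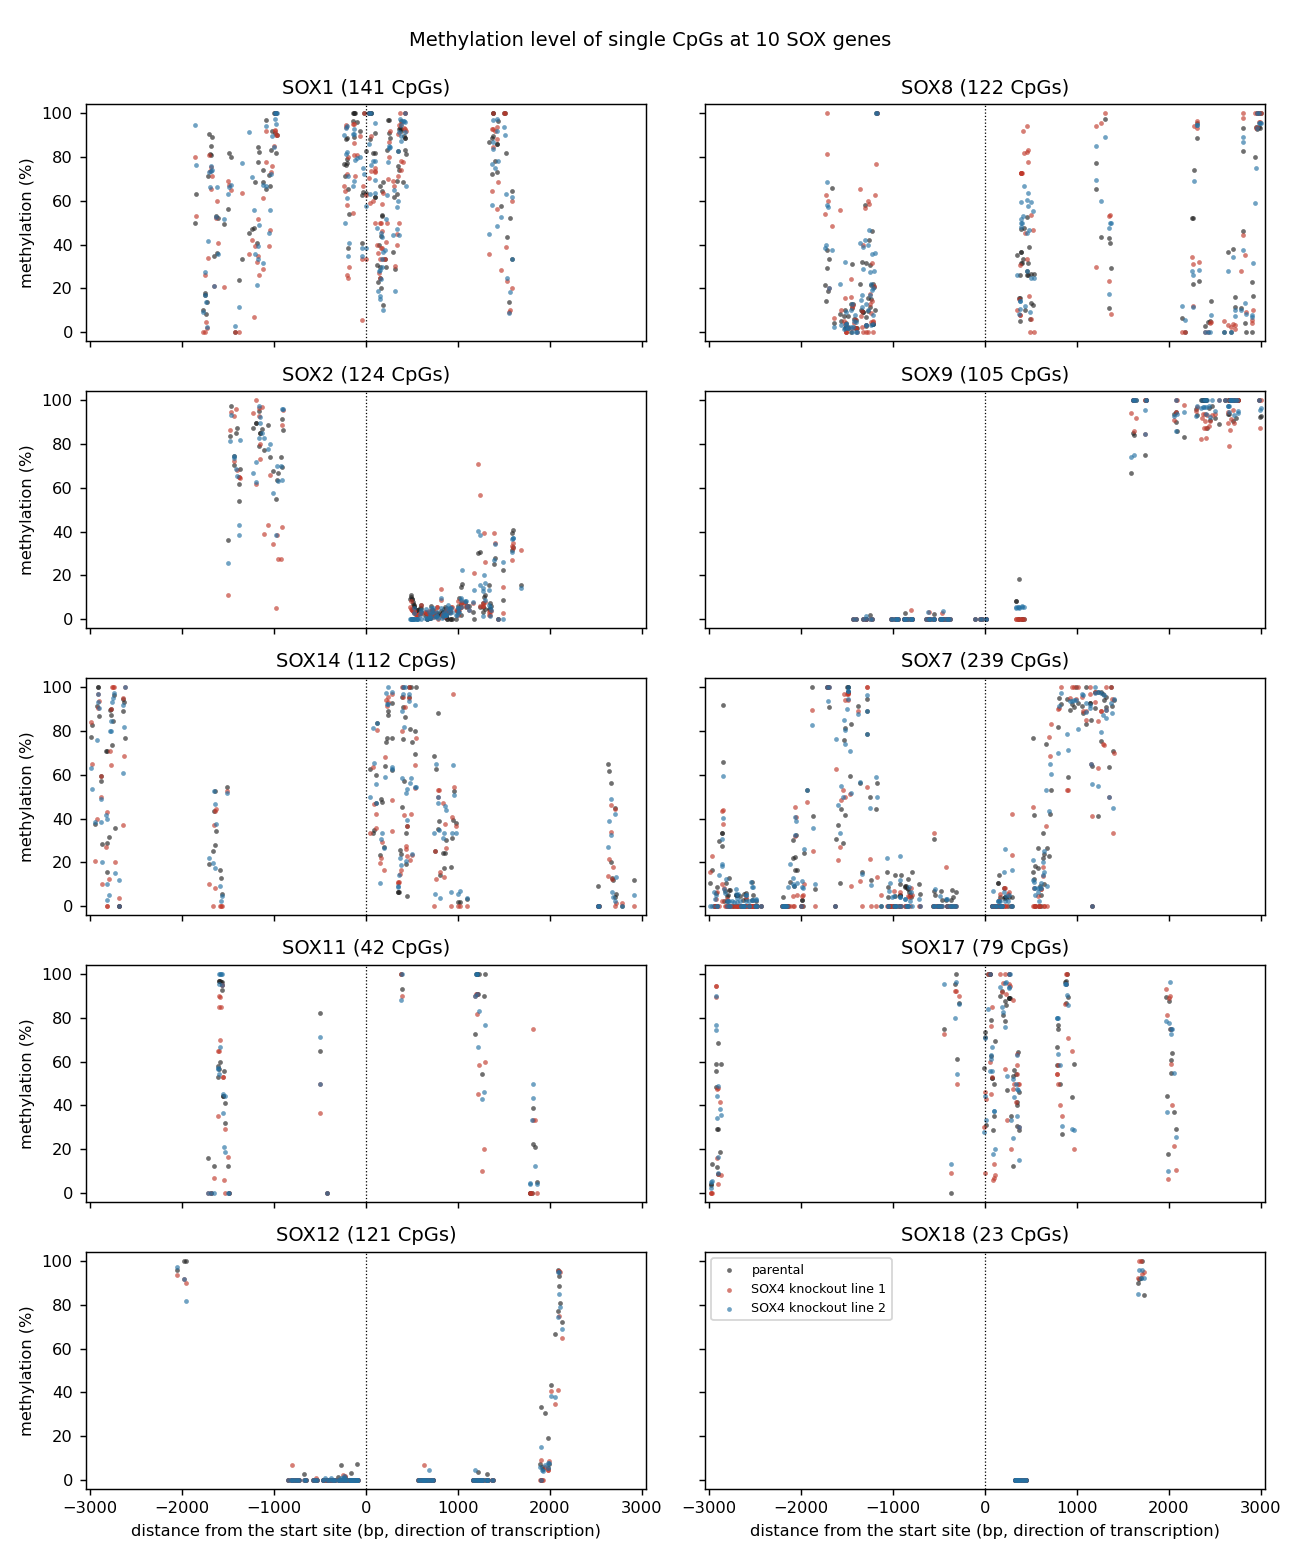
Methylation level (%, vertical axis) of every CpG compared against its distance in bp from the start site (horizontal axis, positive downstream in the direction of transcription), 1 panel per gene, for parental cells (black), line 1 (red) and line 2 (blue). SOX12, SOX9, SOX7 and SOX18 show a stretch near 0 around or just after the start site with high levels farther out, while SOX1, SOX14 and SOX17 show levels over the whole range next to the start site.

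To ask which CpGs differed by more than counting error, methylated and unmethylated reads were compared at each CpG between pairs of libraries by a 2-sided Fisher exact test, adjusted over all 2238764 CpGs. Calls needed an adjusted p below 0.05 together with levels 25 or more percentage points apart. Such a test compares libraries and not conditions. In line 1, 16 SOX CpGs were higher than parental (1.44%, against 0.599% of all CpGs) and 35 were lower (3.16%, against 4.46%). In line 2, 1 was higher (0.0903%, against 0.0831%) and 6 were lower (0.542%, against 0.713%). Called in both lines were 0 higher (against 0.0581%) and 5 lower (0.451%, against 0.6%). Between the knockout lines, 3 were higher in line 1 (0.271%, against 0.184%) and 10 lower (0.903%, against 1.07%). The share higher in line 1 exceeded its background most. Of these 16 CpGs, 10 belonged to SOX8, so the excess rested mainly on 1 gene. At an unadjusted p below 0.05, 50 SOX CpGs were higher in line 1 (4.51%, against 2.14% of all CpGs) and 96 lower (8.66%, against 10.6%). In line 2, 31 were higher (2.80%, against 1.63%) and 57 lower (5.14%, against 5.97%).

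**Figure D3:**
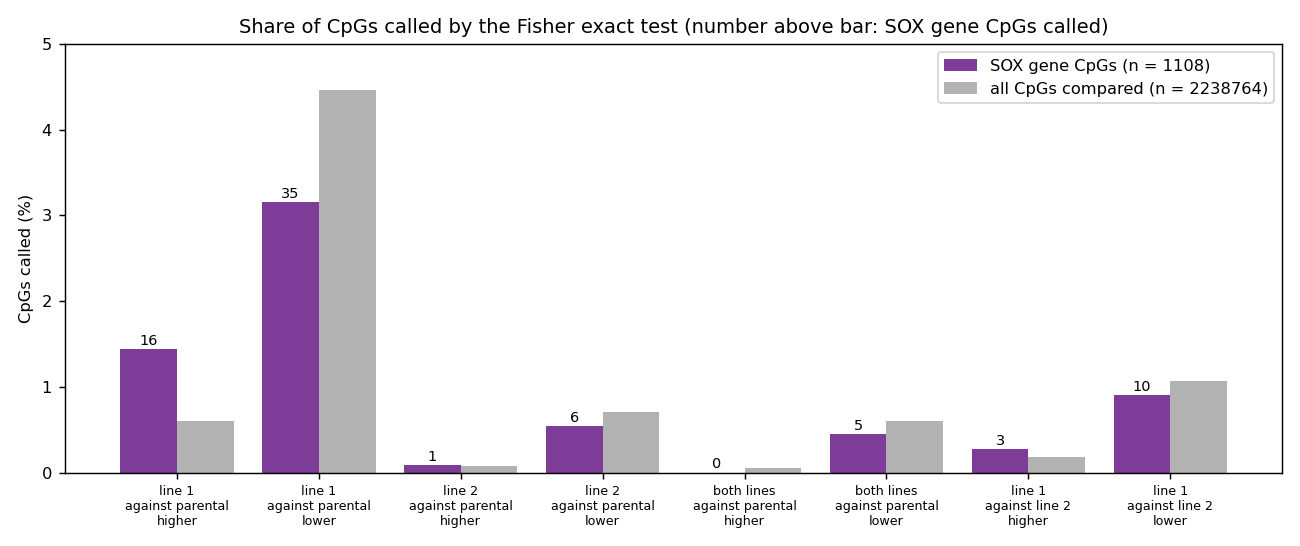
Percentage of CpGs called (vertical axis, from 0) in each comparison and direction for the 1108 SOX CpGs (purple) and all 2238764 CpGs compared (grey), with the number of SOX CpGs above each bar. The purple bar exceeds the grey one most for CpGs higher in line 1 (1.44% against 0.599%). Of these 16 SOX CpGs, 10 belong to SOX8. For CpGs lower in line 1 the purple bar is below the grey one.

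No SOX window of 1 kb differed by the same amount. Of 34 windows of 1 kb with at least 5 CpGs at the SOX genes, 0 were higher and 0 lower than parental by 25 points in both lines, where 0.0672% and 0.551% of 113178 windows in all passed that difference. In neither line alone did a SOX window pass it. Of the 113178 windows, 4684 were lower and 471 higher in line 1 by that difference, and 712 were lower and 101 higher in line 2. With so few windows past it anywhere, 0 of 34 is not read as a result about the SOX genes. With a difference of 10 points, 1 of the 34 SOX windows was higher and 1 lower in both lines, against 0.876% and 9.06% of all windows.

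The 51 CpGs called in line 1 lay in 7 genes, and SOX12, SOX9 and SOX18 had 0 among their 249 CpGs by the Fisher exact test in either line, where 3 in line 1 and 5 in line 2 had an unadjusted p below 0.05. Of all CpGs, 0.599% were called higher and 4.46% lower in line 1, and 0.0831% and 0.713% in line 2. At that unadjusted p, 2.14% of all CpGs were higher and 10.6% lower in line 1, and 1.63% and 5.97% in line 2. Few CpGs of SOX12, SOX9 and SOX18 had a parental level of 20 to 80% (4.96%, 1.90% and 0%). The part of this in their 0 calls was not tested. None of the 364 CpGs below 5% in parental cells was called in either line. Not all of them stayed low, and the highest level was 42.1% in line 1 and 39.3% in line 2. CpGs below 5% in parental cells can only be called higher, which was rare among all CpGs in both lines. The share among all CpGs below 5% was not computed, so this 0 is not read as a result about the SOX genes. Of the 51, 36 had a parental level of 20 to 80%, and 14 of those were below 20% and 8 above 80% in line 1. The 16 higher CpGs had a median difference of 52.2 points in line 1 and 22.5 in line 2, and the 35 lower ones -44.4 and -21.0. The line 1 values chose these CpGs and line 2 is set against the same parental library, so the medians are a description. Within 500 bp of a start site lay 3 of the higher and 5 of the lower CpGs.

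**Figure D4:**
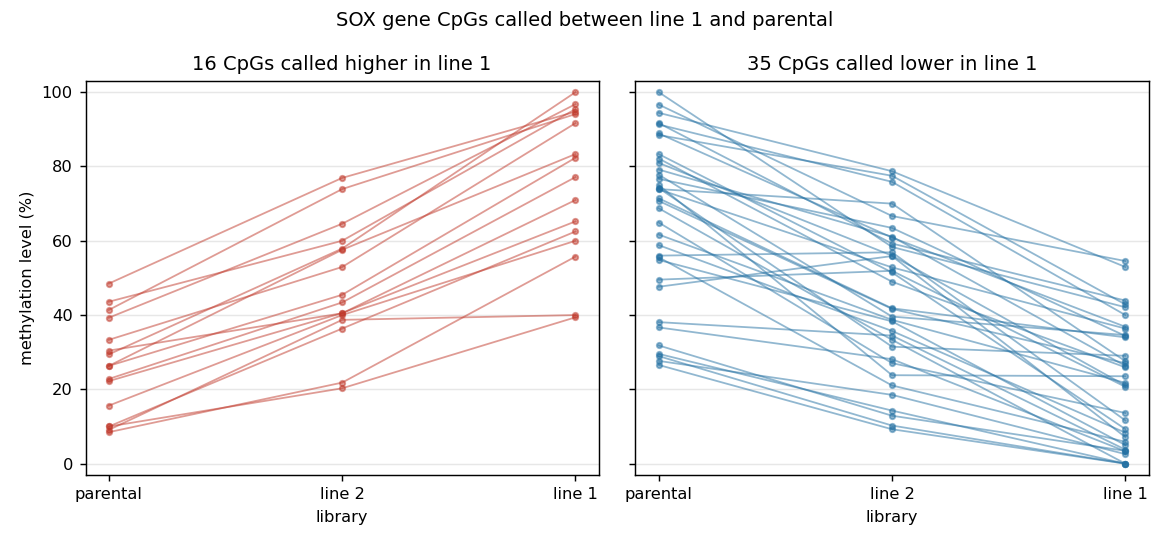
Methylation level (%, vertical axis) of the 16 SOX CpGs called higher (left) and the 35 called lower (right) in line 1, with each CpG drawn as a line through the parental library, line 2 and line 1. The CpGs were selected by the difference between the outer libraries; line 2 had a median difference from parental of 22.5 points on the left and -21.0 on the right.

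The 5 CpGs called lower in both lines were in SOX1, SOX14 and SOX7. At the SOX1 CpG 1117 bp before the start site (chr13, position 112720796), 23 of 31 reads were methylated in parental cells, 9 of 31 in line 1 and 17 of 54 in line 2, with adjusted p of 0.0174 and 0.0288 by the Fisher exact test. At position 112720195 of SOX1 the counts were 55 of 77, 17 of 50 and 46 of 110, with adjusted p of 0.0017 and 0.015 by the same exact test. The exact 95% intervals there were 60.0% to 81.2% in parental cells and 32.5% to 51.6% in line 2. They come from the reads by which this CpG was chosen, so their separation is not further evidence. In SOX1, 8 of 141 CpGs were lower in line 1 and 3 in line 2, against 4.46% and 0.713% of all CpGs. SOX1 also held the only CpG called higher in line 2, at 112720291, with 36.4% in parental cells, 59.7% in line 1 and 66.1% in line 2 (adjusted p of 0.0036 for line 2 and 0.0635 for line 1, Fisher exact test). That CpG lies 96 bp from the one at 112720195, so both directions occurred within a single upstream stretch of SOX1.

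In SOX14, 11 of 112 CpGs were lower and 1 higher in line 1, the most falls of any gene. Of all CpGs, 4.46% were lower and 0.599% higher in line 1. The CpG 2634 bp downstream (chr3, position 137486213) had 37 methylated of 57 reads in parental cells, 9 of 66 in line 1 and 23 of 85 in line 2, with adjusted p of 4.86e-07 and 0.0033 by the Fisher exact test. No run of 3 or more neighbouring CpGs was called in both lines at any gene. The longest run in line 1 alone, named after its values were seen, was 3 CpGs of SOX14 from position 137484063 to 137484085, 484 to 506 bp downstream, with means of 85.3% in parental cells, 28.9% in line 1 and 46.0% in line 2.

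In SOX7, which lies on chromosome 8 and is transcribed from the minus strand, the CpG 1456 bp upstream (position 10589478) had 40 methylated of 48 reads in parental cells, 4 of 43 in line 1 and 35 of 68 in line 2. It was lower in both lines (adjusted p of 1.12e-10 and 0.0399, Fisher exact test) and also differed between the lines (adjusted p of 0.001, same exact test). The CpG 2852 bp upstream (position 10590874) had 44 of 48, 18 of 41 and 32 of 54 methylated reads, with adjusted p of 8.98e-05 and 0.0251 by the exact test. In SOX7, 8 of 239 CpGs were lower and 2 higher in line 1, against 4.46% and 0.599% of all CpGs. In line 2, 2 were lower, against 0.713%. These counts are near the shares of all CpGs and are not read as a result about SOX7.

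At the remaining genes with calls, line 1 alone passed the test. SOX8 had 10 of 122 CpGs higher and 3 lower in line 1 and 0 called in line 2. Of all CpGs, 0.599% were higher and 4.46% lower in line 1, and 0.0831% and 0.713% in line 2. The SOX8 CpG 1715 bp upstream (chr16, position 1030093) had 5 methylated of 17 reads in parental cells, 16 of 16 in line 1 and 11 of 19 in line 2 (adjusted p of 0.00093 and 0.915, Fisher exact test). At 1032274, 466 bp downstream, the counts were 5 of 19, 15 of 18 and 19 of 33 (adjusted p of 0.0178 and 0.617, Fisher exact test), and at 1032221 they were 7 of 21, 11 of 12 and 18 of 34 (adjusted p of 0.0461 and 1). The level of line 2 exceeded that of parental cells at these 3 CpGs without passing the test.

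In line 1, where 4.46% of all CpGs were lower and 0.599% higher, SOX2 had 3 of 124 lower and 2 higher. The lower ones lay upstream, at 181428647, 181428734 and 181428792 on chr3, and fell from 88.5% to 42.9%, from 54.8% to 5% and from 73.9% to 27.6% (adjusted p of 0.0098, 0.00022 and 0.0332, Fisher exact test). Line 2 had 77.5%, 38.3% and 70%, and its adjusted p was 1 at each. At the second of these SOX2 CpGs line 1 was also below line 2 (adjusted p of 0.0199, exact test). SOX11 had 1 of 42 CpGs lower in line 1, at 5831258 on chr2. This CpG had 15 of 27, 1 of 17 and 4 of 19 methylated reads (adjusted p of 0.021 and 0.536, Fisher exact test). SOX17 had 1 of 79 CpGs in each direction, 2924 and 2868 bp upstream on chr8. The former had 48.5%, 94.7% and 76.9% (adjusted p of 0.0156 and 0.363, exact test) and the latter 58.8%, 8.33% and 35.7% (adjusted p of 0.0029 and 0.735).

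The SOX17 pair, 56 bp apart, was 1 of 7 pairs of CpGs within 100 bp of each other that were called in opposite directions in line 1. SOX8 and SOX7 held 3 pairs each, some of which share a CpG. Pairs called in the same direction, and pairs over the whole series, were not counted. The 7 pairs are thus a description without a background. At SOX7, 696 bp downstream, the level was 22.8% in parental cells, 77.1% in line 1 and 43.4% in line 2, and 23 bp away it was 26.6%, 0% and 9.26%. At SOX8 a CpG with 31.8%, 3.45% and 12.9% had a neighbour 29 bp away with 15.6%, 60% and 40%. Methylation in line 1 thus rose and fell at single CpGs of the same stretch, and regional means at SOX8, SOX7 and SOX17 average over both.

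Of 55 bins of 500 bp with at least 5 CpGs, 37 had a lower and 17 a higher level in line 1 than in parental cells, and 34 a lower and 20 a higher level in line 2. A fall of 10 points or more was seen in 8 bins in line 1 and 3 in line 2, and a rise of that size in 2 bins in line 1 and 0 in line 2. Such bins were not counted over the whole series, so these counts are a description without a background. The mean over all CpGs compared differed from parental by -4.07 points in line 1 and -2.13 in line 2. Both rises were at SOX8. In 12 bins, all 3 libraries were below 5%.

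**Figure D5:**
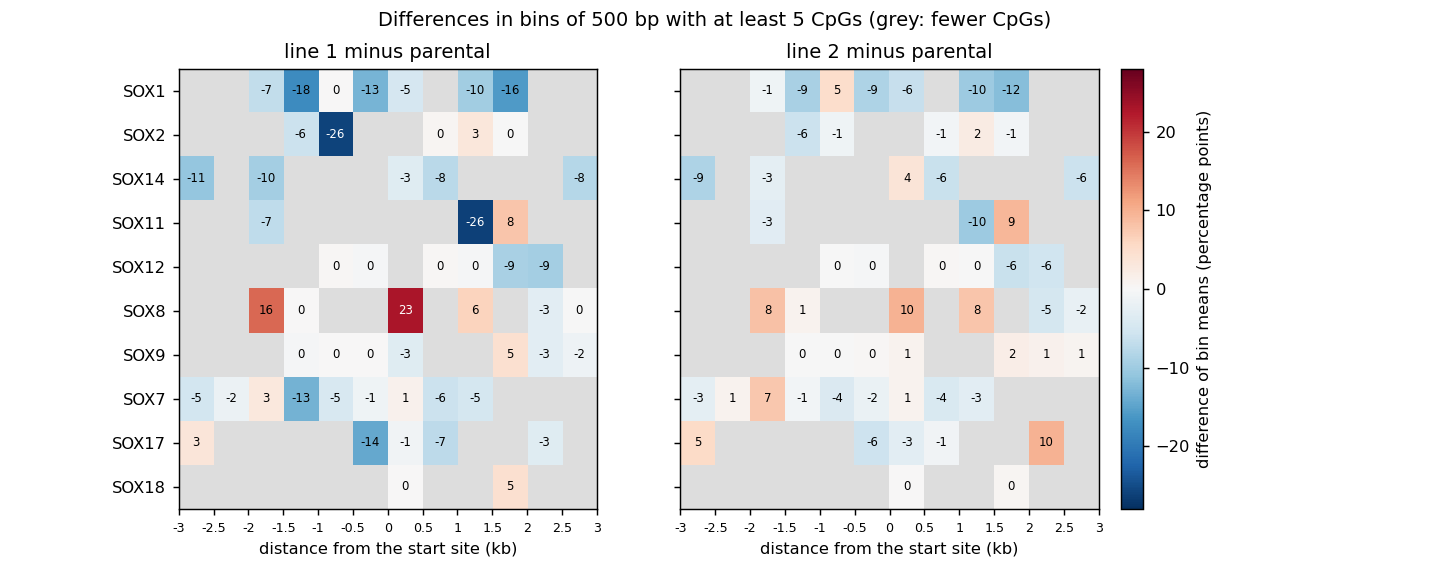
Difference from parental cells, in percentage points, of the mean level in bins of 500 bp (horizontal axis, distance from the start site in kb) for each gene (vertical axis) in line 1 (left) and line 2 (right); red is higher, blue is lower and grey bins had fewer than 5 CpGs. SOX8 has the red bins past 10 points in line 1, SOX1 is blue on both sides of its start site in both lines, and SOX12, SOX9 and SOX18 are near 0 around theirs.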

How the data were processed

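Genomic DNA was captured, bisulfite-treated, amplified and sequenced by the authors on a NovaSeq instrument. The deposited files give, per cytosine and strand, counts of total, context and methylated reads without normalization, and a methylation level that the authors computed as the fraction of methylated among context reads. The submitters' processing notes name GRCh37 and hg19; the aligner, the caller and any removal of PCR duplicates are not given in the sources used here. The authors' total counts and fraction were not used further.

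From the context and methylated counts, both strands of a CpG were summed, and a CpG was kept where each of the 3 libraries had 10 reads or more. The files held 104702738 CpG reads for parental cells, 96987706 for line 1 and 133170621 for line 2, and the median depth at the SOX CpGs was 28, 22.5 and 33 reads. The complementary strand carried 86.7% to 87.0% of the reads. Regional levels are means over CpGs. Fisher exact tests were adjusted by Benjamini-Hochberg. The 95% intervals (exact, Clopper-Pearson) allow for counting error only. Limits given for a count of 0 are 3 divided by the reads and are not these exact intervals. The parental group has 1 library, so p-values compare libraries. Named CpGs are, per gene, up to 3 called in both lines or otherwise up to 3 called in line 1, with the largest differences, and named bins of 500 bp those with the largest rise and fall; other CpGs and bins were picked with values seen. The members and lists were chosen with earlier results of these data known, although the CpGs of each gene were taken by position and depth. No annotation of GRCh37 was used, the direction of transcription was taken from general knowledge, and RefSeq promoters of the 3 genes found were matched to the files by CpG spacing. The test was tested on simulated data. The tools were scipy 1.17.1, numba 0.67.0, numpy 2.4.6, pandas 2.3.3 and matplotlib 3.10.9 under Python 3.11.15. Alternatives covered the read minimum, the weighting, the distance, the strand, the thresholds, thinning to equal depth, the windows and leaving out each knockout line.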

Additional observations from a re-analysis of the deposited data

How the results depend on the processing

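No paired analysis was possible because only 1 library represents parental cells, so the groups share fewer than 2 replicate numbers. Parental depth, single libraries and wide intervals at single CpGs limit every result. Mean levels of the SOX CpGs depended on which CpGs were kept. In the order parental, line 1 and line 2 they were 31.6%, 28.3% and 30.4% with a minimum of 20 reads, 30.7%, 28.3% and 28.9% weighted by reads, and 30.5%, 28.3% and 29.1% within 1 kb, and a minimum of 5 reads gave 38.9% in parental cells and 37.7% in line 2. Start-site levels were 36.2%, 33.7% and 35.0% with a minimum of 5 reads, 30.5%, 28.4% and 29.9% with 20, and 30.7%, 29.7% and 27.4% weighted by reads. The order of parental above both lines held in each of these settings. Leaving out 1 knockout line gave a difference from parental of -3.01 to -1.41 points over the SOX CpGs, 1 to 16 CpGs higher and 6 to 35 lower, by construction of a call in 1 line.

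A difference of 50 points left 9 higher and 11 lower CpGs in line 1, 0 and 1 in line 2, 0 lower in both lines, and 0 higher and 2 lower in line 1 against line 2. An adjusted p below 0.01 left 9 and 19 in line 1, 2 lower in line 2, 1 lower in both lines, and 0 and 5 between the lines. Thinning to equal depth left 23 lower in line 1, 0 and 2 in line 2, 1 lower in both lines, and 0 and 4 between the lines. A minimum of 20 reads gave 3 CpGs higher in line 2, where fewer CpGs are tested, and the complementary strand alone 1 CpG higher in line 1 than in line 2. The share of all CpGs called was not kept under these settings, so the counts have no background. Whether the share of SOX CpGs higher in line 1 exceeds that of all CpGs under them was not tested. With 10 points, 1 window was higher and 1 lower in both lines, against 0.876% and 9.06% of all windows. The difference from parental kept its sign in 65 of 69 gene values. The reversed ones were SOX2 (0.11 points) and SOX17 (1.33) weighted by reads, and SOX9 on the complementary strand (0.15) and without line 1 (0.64, against -0.70 without line 2); the cause was not tested.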

Other observations

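Coverage set what could be seen at several genes. Of the CpGs read, 25.6% could be compared at SOX11, 24.5% at SOX18 and 38.0% at SOX17, against 89.9% at SOX2, and 759 CpGs of the 10 regions fell below the minimum. Relative to parental cells, the share of a library's CpG reads that fell on the CpGs of a region, compared or not, was 0.78 in line 1 and 0.89 in line 2 at SOX11, and 1.15 and 1.22 at SOX9. In the same order it was 0.82 and 1.07 at SOX1, 0.86 and 0.88 at SOX7, and 0.85 and 0.91 at SOX17. SOX8 had 0.99 and 0.84, SOX18 1.16 and 1.08, SOX2 1.00 and 0.97, and SOX14 1.01 and 0.94. The part of these read shares in the levels was not tested.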
